A study of Gallus gallus with 18 samples.

Results

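Abdominal fat was compared with liver and ovary of the same birds, to describe which genes set the adipose tissue of a laying broiler breeder hen apart. RNA-seq libraries came from 6 Arbor Acres hens, a line of meat-type chicken, sampled when 30 wk old. Starting at 22 wk, 3 of the hens (F1721, F1723 and F1725) ate ad libitum and 3 (F1724, F6709 and F6710) were kept on restricted feed, where each hen is named by its adipose library. Each hen gave 1 library of abdominal fat, 1 of liver and 1 of ovary, where ovary was the stroma with its small follicles, so 6 of the 18 libraries were adipose. Of 17108 genes in the deposited table, 12981 were above 1 CPM (counts-per-million, a count scaled by library size) in all 6 libraries of at least 1 tissue and were tested.

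White adipose tissue stores triglyceride in the lipid droplets of adipocytes, which sit among capillaries, fibroblast-like progenitor cells, immune cells and matrix. In birds most new fatty acid is made in the liver and travels to fat in lipoproteins, whose triglyceride is split by lipoprotein lipase at the capillary wall. The adipocyte takes up these fatty acids, carries them on binding proteins and seals them in droplets coated with perilipins. Abdominal fat also lies next to the peritoneum, whose surface is a sheet of mesothelial cells.

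Libraries held 14793554 to 23261748 counts, and 3 counts corresponded to 0.129 to 0.203 CPM. In adipose the top 5 genes held 6.79% to 9.37% of counts, against 30.3% to 43.6% of liver counts and 3.92% to 5.31% of ovary counts. Levels below are CPM scaled by TMM (trimmed mean of M-values) factors, which were 1.1 to 1.33 in adipose, 0.423 to 0.498 in liver and 1.59 to 1.79 in ovary. Scaled liver levels are therefore higher than unscaled CPM, and scaled adipose and ovary levels are lower. In the adipose libraries, log2 levels correlated with each other at r of 0.9207 to 0.9855 across genes, which are not independent replicates. Hens F1721 and F6709 stood apart in the summed list of mesothelial markers, as described further on. Counts are not divided by gene length, so a level is compared between tissues and not between genes. In bulk tissue, fewer cells of a type and less RNA per cell cannot be told apart.

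Most genes expressed in fat were also expressed in another tissue. Above 1 CPM in all 6 libraries were 11284 genes in adipose, 9753 in liver and 12362 in ovary, and 9192 genes passed in all 18 libraries. Genes above 1 CPM in every adipose library and below 1 CPM in the 12 others numbered 44, against 67 for liver and 370 for ovary. Most of the 44 were weakly expressed, with a median over genes of 2.84 CPM before TMM scaling. Of the 44, 4 carry a symbol other than a LOC number, and these were picked after their values were seen: CCLI5 (median 134 CPM), PITX1 (24.1 CPM), SPRY4 (5.51 CPM) and TBX22 (2.34 CPM).

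Each contrast was fitted in edgeR (quasi-likelihood) with the hen as a block, and a gene was called at a Benjamini-Hochberg adjusted p (FDR) under 0.1. Against the mean of liver and ovary, 4888 of the 12981 genes (37.7%) were higher in adipose and 4688 (36.1%) were lower. The split depended on scaling: with library size alone, 71.8% of calls were higher in adipose, against 51% with TMM, and the median log2 difference over all genes rose from 0.00 to 0.43. A stricter class required adipose to differ in the same direction from liver and from ovary, with the larger of both p-values adjusted. By this test 2158 genes (16.6%) were above both tissues and 1306 (10.1%) were below both. Of the genes above both, 1320 exceeded each tissue by at least 2-fold, 473 by at least 4-fold, 77 by at least 16-fold and 19 by at least 64-fold. Adipose was the highest tissue in 6 of 6 hens for 1867 of the 2158. Of the genes below both, 648 were lower by at least 2-fold, 262 by at least 4-fold and 53 by at least 16-fold. With library size alone the count below both was 534.

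**Figure D1:**
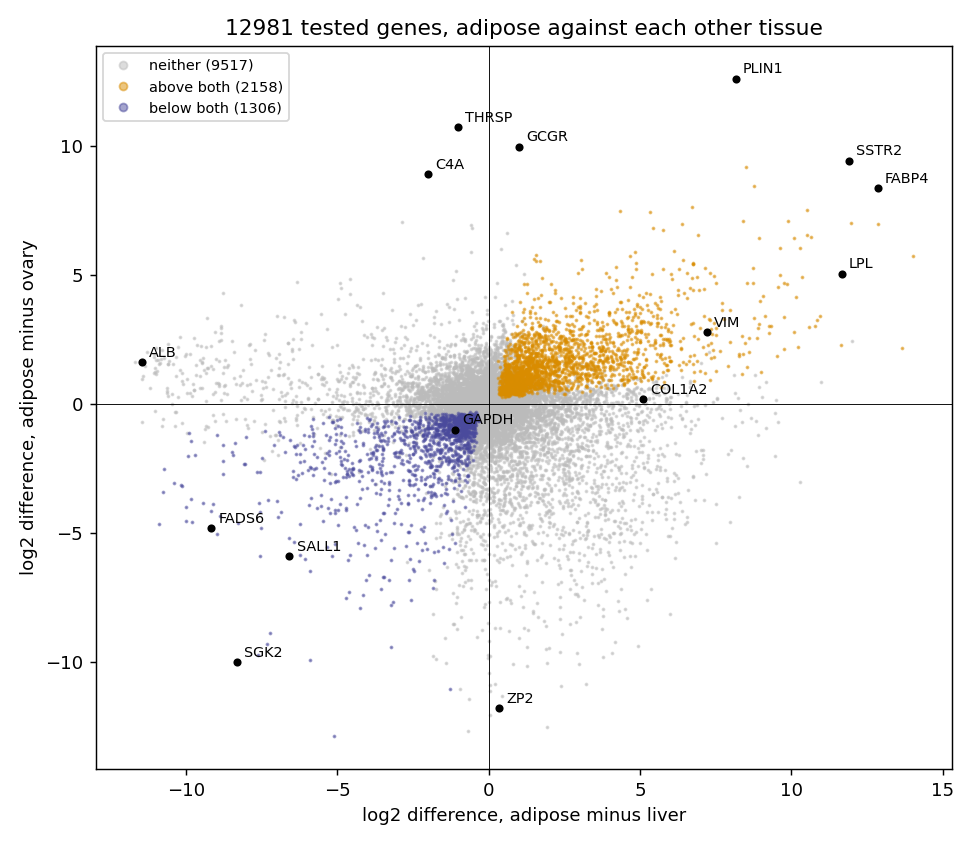
Each point is 1 of the 12981 tested genes, placed by its log2 difference of adipose from liver (horizontal) and from ovary (vertical). The 2158 genes above both tissues fill the upper right, the 1306 below both the lower left, and named genes such as THRSP and C4A lie high in the upper left because liver expressed them too.

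A gene could be named only where the study's supplementary tables pair its identifier with a symbol, which held for 5537 of the tested genes. For 2151 genes of the whole table the symbol came only from the study's list of tissue specific genes, which was chosen on these same samples. Counts over the gene lists below are therefore no independent evidence of their direction. Among the genes with a symbol, 856 (15.5%) were above both tissues and 668 (12.1%) were below both. Their median log2 difference from the mean of the other tissues was -0.14.

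The 20 named genes with the largest smaller-of-both difference included lipid carriers, surface receptors and transcription factors. They were required to lie above both tissues in 6 of 6 hens, so ranges that do not overlap were likely from the start. FABP4, which carries fatty acids in adipocytes, was 5557 to 10940 CPM in adipose (median 6566), 0.191 to 3.1 CPM in liver and 5.23 to 66.1 CPM in ovary. Its log2 difference was 12.84 ± 0.97 (SE, 6 hens) from liver and 8.37 ± 0.82 from ovary (FDR above both 5.34e-06). PLIN1, which coats the lipid droplet, was 4907, 4140 and 3946 CPM in fat of the ad libitum hens F1721, F1723 and F1725, and 6525, 3078 and 10040 CPM in that of the restricted hens F1724, F6709 and F6710. Both feeding groups overlapped, and all 6 fat libraries lay far above liver (7.46 to 32.2 CPM) and ovary (0.581 to 1.45 CPM). Among the genes with a symbol, FABP4 and PLIN1 also took the largest shares of adipose counts, 0.902% and 0.65% on average. RBP7, a retinoid binding protein, was 683 to 1885 CPM in adipose, 0.191 to 2.3 CPM in liver and 2.73 to 23.1 CPM in ovary.

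SSTR2, a receptor for the hormone somatostatin, had the largest smaller-of-both difference of the named genes. Fat held 532, 262 and 333 CPM in the ad libitum hens F1721, F1723 and F1725, and 800, 433 and 406 CPM in the restricted hens F1724, F6709 and F6710. Liver held 0 to 0.276 CPM and ovary 0.455 to 0.878 CPM. The log2 difference was 11.91 ± 0.41 from liver and 9.43 ± 0.33 from ovary (FDR above both 6.7e-10). ACVR1C, an activin-type receptor known in mice to restrain lipolysis, was the steadiest of the 20, at 333 to 452 CPM in adipose, 3.72 to 9.84 CPM in liver and 1.64 to 6.53 CPM in ovary. GRIK1, a subunit of kainate-type glutamate receptors, was 112 to 235 CPM in fat and 0.338 to 9.84 CPM in ovary, and had 3 counts in all liver libraries together.

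Transcription factors among the 20 were LMX1A, TCF15 and PITX1, given here together with HOPX. LMX1A, a LIM homeobox factor, was 72.1 to 138 CPM in adipose and at most 0.62 CPM in liver and 1.09 CPM in ovary. HOPX, a small homeodomain protein, was 299 to 554 CPM in adipose, 3.77 to 11.2 CPM in liver and 4.13 to 9.32 CPM in ovary. PITX1, known for its role in the hindlimb, was 8.68 to 20.6 CPM in adipose and at most 0.639 CPM elsewhere. These levels did not overlap between adipose and the other tissues, which the choice by the largest differences made likely.

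Matrix and guidance genes followed. COL28A1, a collagen, was 126 to 478 CPM in fat and 1.14 to 2.8 CPM in ovary, with 2 counts in liver. OPTC, a small proteoglycan known from the eye, was 24.1 to 245 CPM in fat and 0.82 to 2.11 CPM in ovary. OPTC had 0 counts in the 6 liver libraries, so its mean in fat was at least 2204-fold higher than the floor of 3 counts over those libraries. The semaphorins SEMA3G (91.6 to 378 CPM) and SEMA6C (94.2 to 586 CPM), signals that guide growing axons and vessels, were at most 8.84 and 10.1 CPM in the other tissues. NFASC, a cell adhesion protein known from nerve, was 251 to 586 CPM in adipose and at most 6.56 CPM elsewhere. SPRY3, a sprouty-type inhibitor of growth factor signalling, was 24.2 to 228 CPM in adipose and at most 5.16 CPM elsewhere. The remaining named genes were CCLI5, RAB18L, C17orf105 and PLEKHN1, with adipose medians of 113, 1934, 127 and 33.6 CPM. None of their adipose libraries overlapped with liver or ovary, which their choice made likely.

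**Figure D2:**
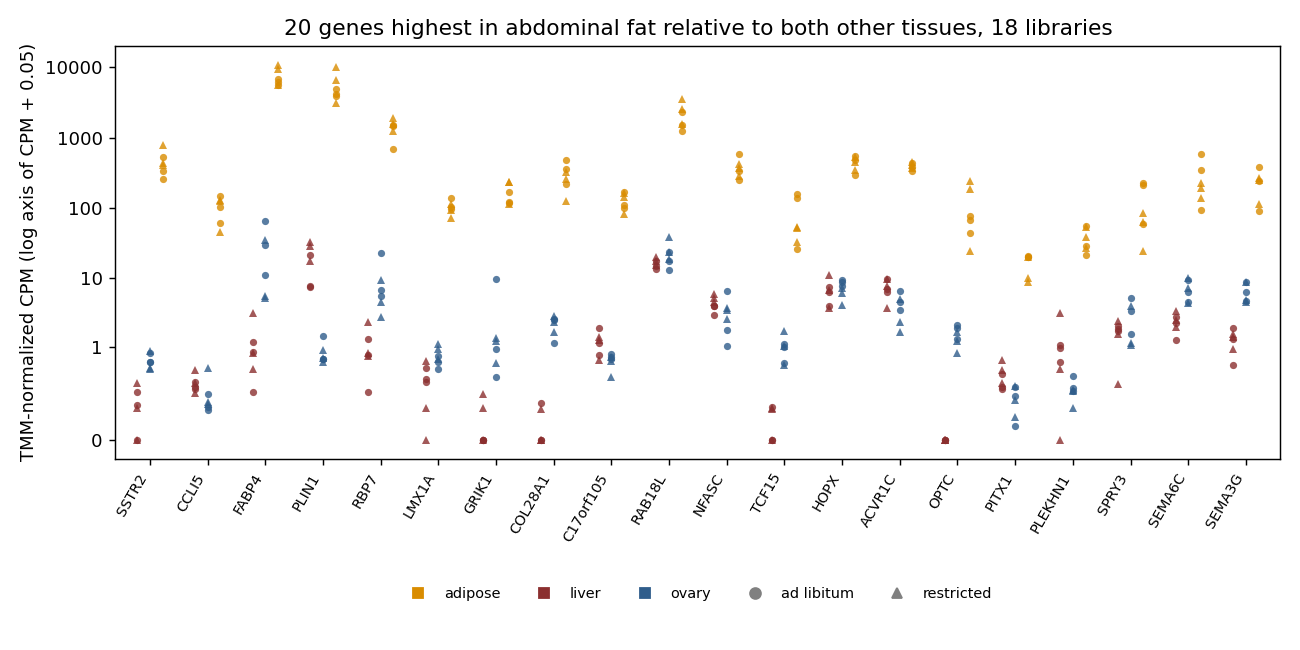
TMM-normalized CPM (log axis of CPM + 0.05) of the 20 named genes in each of the 18 libraries, with colour for the tissue and shape for the feeding group. Every adipose point lies above every liver and ovary point of its gene, which the choice by the largest differences made likely. OPTC is at 0 in all 6 liver libraries.

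Of 21 tested genes of adipocyte identity and the lipid droplet, 15 were higher in adipose than the mean of the other tissues and 2 were lower, with a median log2 difference of 3.62 against 0.00 over all genes. Above both tissues were 13 of the 21. Over all genes, 37.7% were higher, 36.1% lower and 16.6% above both. LPL, the lipase that releases fatty acids from lipoproteins, was 877 to 4084 CPM in fat, 0.276 to 1.19 CPM in liver and 37.3 to 66.3 CPM in ovary. PPARG, the master transcription factor of adipocyte formation, was 101 to 334 CPM in fat, 6.81 to 12.3 CPM in liver and 12.5 to 16.8 CPM in ovary. ADIPOQ, the hormone adiponectin, was 125 to 325 CPM in fat and 0.322 to 2.01 CPM in liver. Ovary of hen F1724 (141 CPM) reached the adipose range of ADIPOQ, and the other ovary libraries held 8.19 to 43.2 CPM. PNPLA2, which starts triglyceride breakdown, was higher by 4.24 ± 0.39 than in liver and by 4.54 ± 0.39 than in ovary on the log2 scale. G0S2, which inhibits PNPLA2 in mammals, was higher by 4.85 ± 0.49 and 5.46 ± 0.51.

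Several droplet genes were high in liver as well. CD36, a fatty acid transporter, was 1334 to 1880 CPM in fat, 459 to 713 CPM in liver and 9.53 to 48.2 CPM in ovary. CIDEA and CIDEC, which fuse lipid droplets, were both above both tissues, but CIDEA exceeded liver by 1.58 ± 0.34 on the log2 scale and CIDEC by 3.59 ± 0.29. CIDEC was not high in liver (17.1 to 41.8 CPM, against 16.3 to 46.5 CPM in ovary). ACSL1, which activates fatty acids, exceeded liver by 1.27 ± 0.33, and was not called above both without hens F1721 and F6709 together. GPAM and AGPAT2, which build glycerolipids, were the 2 lower genes. GPAM was 4.15 to 10.2 CPM in fat, 318 to 1102 CPM in liver and 17.4 to 32.6 CPM in ovary. AGPAT2 was 19.1 to 36.5 CPM in fat, 197 to 478 CPM in liver and 24.8 to 56.5 CPM in ovary.

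The family of fatty acid binding proteins divided by tissue. Of 6 tested members 3 were above both tissues, namely FABP3, FABP4 and FABP5, where 16.6% of all genes were above both. FABP5 was 448 to 1075 CPM in fat, 19.1 to 48.4 CPM in liver and 11.4 to 44.2 CPM in ovary. FABP3 was 500 to 4126 CPM in fat, 99 to 308 CPM in liver and 17.2 to 53.9 CPM in ovary. FABP1 and LBFABP, the liver-type proteins, reached at most 2.35 and 11.9 CPM in fat against at least 337 and 5125 CPM in liver. FABP7 was called below both tissues, at 5.08 to 10.5 CPM in fat (FDR 0.0563), and lost the call with library size alone and without hen F1721, F1725, F6709 or F6710 (FDR up to 0.17).

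Most genes that make fatty acids were lower in fat than in liver. Of 9 tested genes, 7 were lower than the mean of the other tissues and 2, THRSP and SREBF1, were higher. Among all tested genes 36.1% were lower and 37.7% higher. FASN, fatty acid synthase, was 294 to 1016 CPM in fat, 2980 to 11730 CPM in liver and 199 to 240 CPM in ovary, a log2 difference of -3.18 ± 0.33 from liver and 1.23 ± 0.31 from ovary. ELOVL2, which elongates polyunsaturated fatty acids, showed the widest gap, at 0.0969 to 6.28 CPM in fat and 3210 to 4199 CPM in liver. THRSP, a thyroid hormone responsive lipogenic protein, was 758 to 3223 CPM in fat, 1009 to 8102 CPM in liver and 0.113 to 1.49 CPM in ovary. SREBF1, a transcription factor of lipid synthesis, was 47.8 to 270 CPM in fat and 59.8 to 184 CPM in liver, and these did not pass the test against each other (FDR 0.448). All 4 tested genes of fatty acid oxidation were lower than the mean of the other tissues, and all 4 were lower than in liver. However, 0 of the 4 were below both tissues. EHHADH was higher than in ovary (log2 difference 1.42, FDR 0.000163), and HADH did not differ detectably from ovary (0.125, FDR 0.437). CPT1A, which admits fatty acids to mitochondria, was also higher than in ovary (0.60, FDR 0.0704). Its call against the mean was lost with library size alone, with no hen block and without hen F1724 or hen F6710. Of 15 genes of glucose uptake, glycolysis and glycerol supply, 2 were higher and 9 lower, or 6 lower with library size alone. HK2, a hexokinase, was above both tissues (55.3 to 100 CPM in fat, 6.03 to 21.4 CPM in liver, 6.8 to 19.6 CPM in ovary).

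Of 16 tested hormone receptors and lipolysis control genes, 7 were higher and 6 lower than the mean of the other tissues, near the shares over all genes (37.7% and 36.1%). Above both tissues was NPR3, which clears natriuretic peptides, with 52.1 to 181 CPM in fat, 1.33 to 2.94 CPM in liver and 2.31 to 5.59 CPM in ovary. PRKAR2B, a regulatory subunit of protein kinase A, was higher by 6.04 ± 0.33 than in liver and by 4.83 ± 0.30 than in ovary on the log2 scale. PTGER3, a prostaglandin E receptor that lowers cAMP, was higher by 3.22 ± 0.56 and 3.42 ± 0.55. The corticosteroid receptors NR3C1 and NR3C2 and the thyroid hormone receptor THRA were also above both, THRA by 1.35 ± 0.20 against liver and 1.45 ± 0.20 against ovary on the log2 scale. The calls of NR3C1 and NR3C2 were lost with library size alone and when any of 3 and 4 hens, respectively, was left out (FDR up to 0.146 and 0.175). The estrogen receptor ESR2 was below both, at 0.256 to 1.64 CPM in fat, 27.9 to 76.9 CPM in liver and 3.41 to 18.1 CPM in ovary. ESR1 and the growth factor receptor FGFR2 were also called below both (FDR 0.0559 and 0.0962), but ESR1 lost the call without hen F1721, F1723 or F1725 (FDR up to 0.212), and FGFR2 when any hen other than F6709 was left out (up to 0.391) and with no hen block. FGFR2 was 56 CPM in fat of hen F6709 and 2.81 to 12.3 CPM in the other 5. ESR1 was 3.61 to 4.98 CPM in fat, 26.6 to 82.6 CPM in liver and 3.22 to 15.5 CPM in ovary.

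GCGR, the glucagon receptor, was 157 to 552 CPM in fat, 102 to 176 CPM in liver and 0.0567 to 1.11 CPM in ovary. Its log2 difference was 0.99 ± 0.38 from liver (FDR 0.0291) and 9.97 ± 0.57 from ovary. GCGR was higher in fat in 6 of 6 hens, the fat and liver ranges overlapped, and its FDR above both was 0.117. GHR, the growth hormone receptor, was 105 to 172 CPM in fat, 1554 to 2099 CPM in liver and 6.34 to 29.2 CPM in ovary. Of 19 tested secreted signals, 11 were higher, 3 were lower and 7 were above both tissues. These 7 were ADIPOQ, ANGPTL2, CXCL12, FGF7, GREM1, HGF and WFIKKN2, of which HGF lost the call without hen F1721, F1723 or F1724 (FDR up to 0.229). Over all genes 16.6% were above both. WFIKKN2, an inhibitor of myostatin-type ligands, was 1.99 to 17.2 CPM in fat and at most 0.684 CPM elsewhere.

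Developmental transcription factors were a further group. Of 21 tested adipogenic and positional factors, 17 were higher than the mean of the other tissues, 1 was lower and 11 were above both. Among all genes these shares were 37.7%, 36.1% and 16.6%. With RLE factors or library size alone 11 were again above both. HOXB6, a homeobox gene that marks position along the trunk, was 44.1 to 99 CPM in fat, 10 to 30 CPM in ovary and had 0 counts in liver, at least 1503-fold below the mean in fat. HOXD8, HOXA10 and HOXC10 likewise had 0 counts in liver, with adipose ranges of 6.4 to 20.8, 3.82 to 8.67 and 1.04 to 7.35 CPM. HOXA10 was 0.394 to 6.77 CPM in ovary, and in hen F6709 ovary (6.77 CPM) exceeded fat (5.33 CPM). HOXC6 and EBF2 did not differ detectably from ovary, with log2 differences of 0.10 ± 0.27 and 0.42 ± 0.38. EBF3 was 25.3 to 47.3 CPM in fat, 0.266 to 1 CPM in liver and 1.53 to 4.41 CPM in ovary, and PRDM16, a co-regulator of brown-type fat in mammals, was 26.5 to 54.6, 1.1 to 1.95 and 3.77 to 7.72 CPM. KLF5 was called higher than the mean, and without hen F1721 or without hen F6709 this call was lost (log2 difference 1.28 and 0.999).

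Of 17 endothelial markers, 14 were higher than the mean of the other tissues, 3 were lower and 12 were above both, with a median log2 difference of 2.76. Over all genes 37.7% were higher, 36.1% lower and 16.6% above both. PECAM1, an adhesion protein of endothelium, was 580 to 1435 CPM in fat, 58.1 to 108 CPM in liver and 51.8 to 108 CPM in ovary. CLDN5, a tight junction protein of endothelium, was 99 to 295 CPM in fat and at most 12.6 CPM elsewhere. The 3 lower markers were LYVE1, PROX1 and MMRN1. All 10 stromal and progenitor markers were higher than the mean and 7 were above both. With library size alone 5 were above both, and without hen F1721 or without hen F6709 6 were. THY1 lost the call with library size alone and without hen F1721, F1725 or F6709 (FDR up to 0.162), and PDGFRB with library size alone. MFAP5, a microfibril protein, was 79.1 to 504 CPM in fat, 0.107 to 0.709 CPM in liver and 13 to 49.6 CPM in ovary. PDGFRA, the platelet-derived growth factor receptor of fibroblasts, was 63.8 to 170 CPM in fat and 70.4 to 228 CPM in ovary, where it was higher (log2 difference of adipose from ovary -0.73 ± 0.30, FDR 0.0392).

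Of 27 tested extracellular matrix genes, 23 were higher than the mean of the other tissues, 2 were lower and 8 were above both, against 37.7%, 36.1% and 16.6% of all genes. COL1A2, a chain of type I collagen, was 910 to 3255 CPM in fat and 32.9 to 101 CPM in liver. In ovary it was 5797 CPM in hen F1724 and 788 to 1697 CPM in the other libraries. Fat was above both tissues in 5 of 6 hens, and the log2 difference from ovary was 0.20 ± 0.47. COL4A1 and COL4A2, the chains of basement membrane collagen, were higher by 2.11 ± 0.48 and 2.06 ± 0.53 than in ovary on the log2 scale. Their ovary levels were also highest in hen F1724, at 1295 and 690 CPM, against at most 334 and 178 CPM in the other ovary libraries. Without hens F1721 and F6709 together, an alternative chosen after seeing the data, 18 were higher, 2 were lower and 3 of 27 were above both. COL4A1 and COL4A2 were no longer among these, but both kept the call in every fit without 1 hen (FDR up to 0.0368 and 0.0681). Counts over the list were refitted without these 2 hens only, and fewer hens also lower the power. Whether the fall is particular to these hens was not tested. Summed over the list, the level was 20530 CPM in fat of hen F1721 and 9508 to 13530 CPM in the other 5 adipose libraries (without hen F1721, 6 of 27 were above both, and without hen F6709, 5 of 27).

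**Figure D3:**
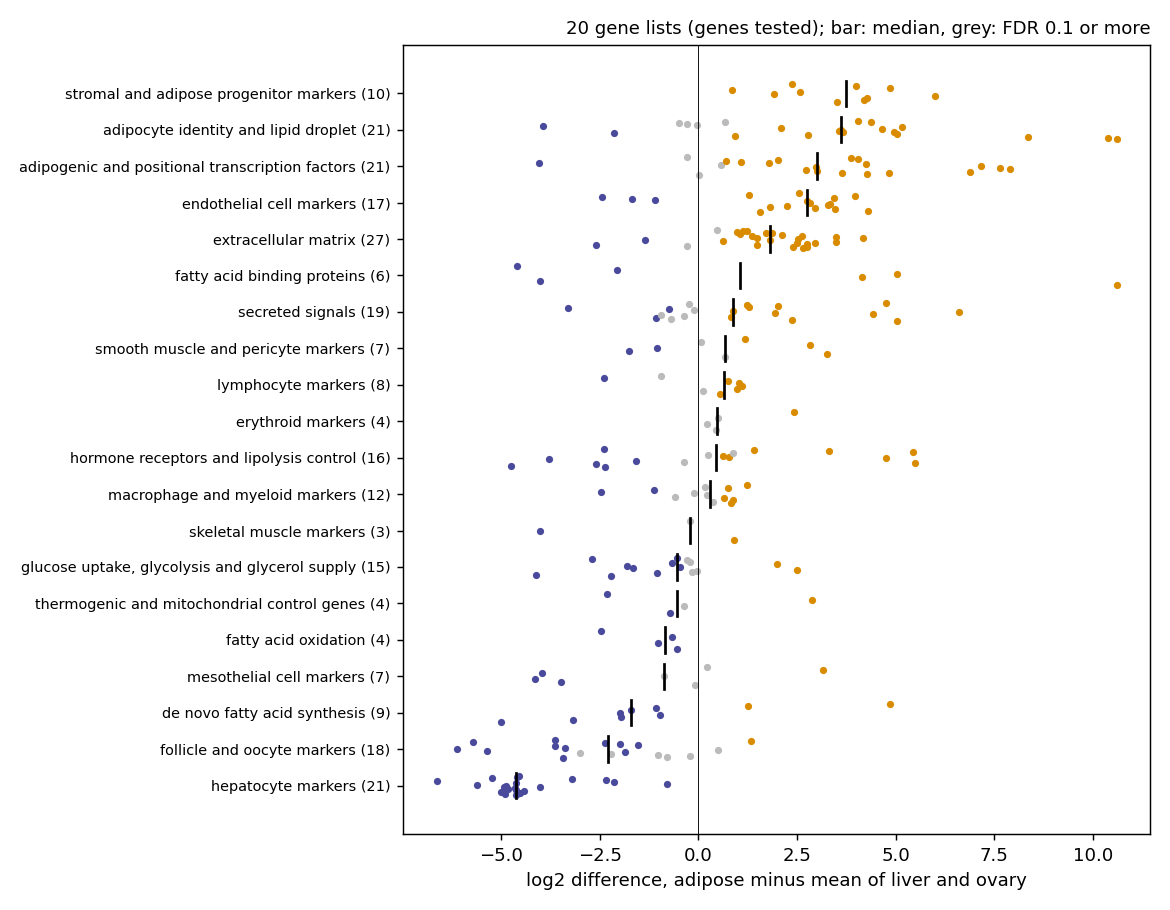
The log2 difference of adipose from the mean of liver and ovary for each tested gene of the 20 lists, with the number tested after each name. Black bars are medians, from 3.75 for stromal and progenitor markers to -4.62 for hepatocyte markers, and grey points had an FDR of 0.1 or more.

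Other genes that adipose shared with a single tissue showed how the mean contrast and the stricter class differ. C4A, complement component C4, took 0.213% of adipose counts. It was 890 to 3069 CPM in fat, 4881 to 14070 CPM in liver and 2.21 to 6.56 CPM in ovary, so it was called higher than the mean (FDR 7.18e-07) and yet lower than liver. ABHD5, the activator of PNPLA2, was 87.6 to 182 CPM in fat, 254 to 717 CPM in liver and 5.31 to 15.5 CPM in ovary. On the ovary side, LAMA2, a laminin chain, was 35.6 to 139 CPM in fat, 0.709 to 7.11 CPM in liver and 42.9 to 117 CPM in ovary. FSTL1, a secreted glycoprotein, was 50.2 to 152 CPM in fat, 1.95 to 8.1 CPM in liver and 40.5 to 161 CPM in ovary.

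**Figure D4:**
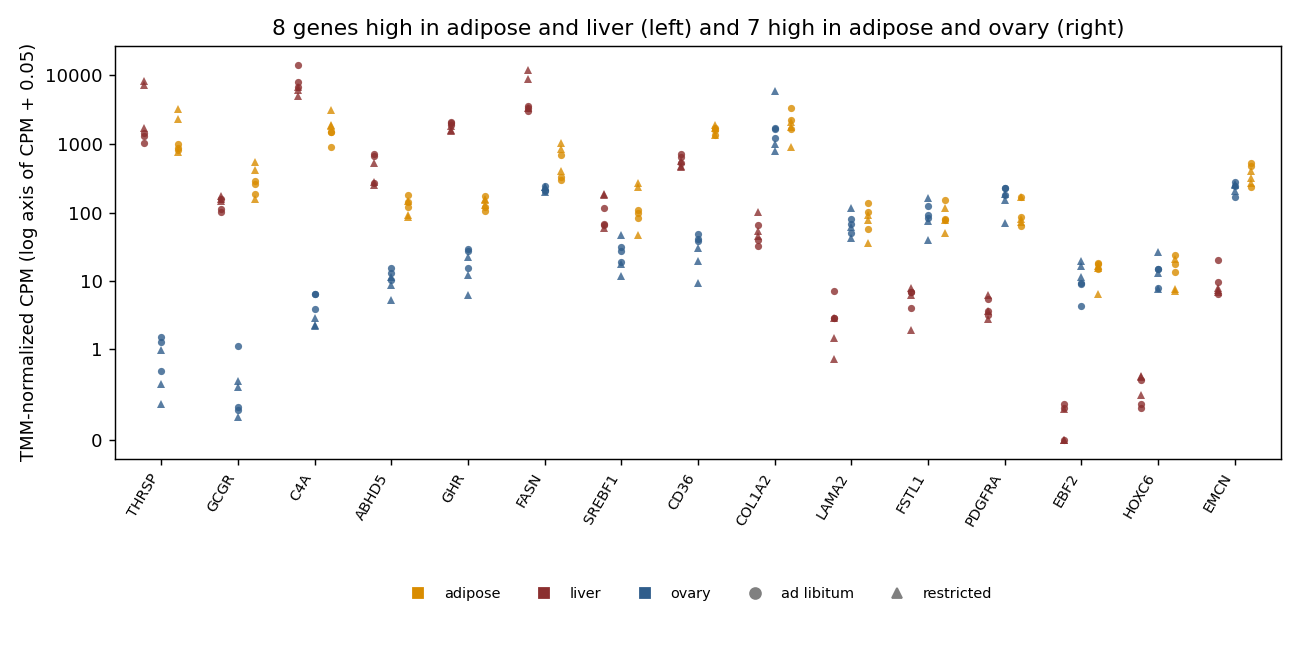
TMM-normalized CPM (log axis of CPM + 0.05) of 15 genes in the 18 libraries, by tissue (colour) and feeding group (shape). The left 8 genes, from THRSP to CD36, are high in adipose and liver, and the right 7, from COL1A2 to EMCN, are high in adipose and ovary and low in liver.

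Among the 10 genes with a symbol that took the largest shares of adipose counts, VIM, the intermediate filament of mesenchymal cells, was 2227 to 6952 CPM in fat, 20.1 to 28.8 CPM in liver and 469 to 642 CPM in ovary. PLIN4, another droplet protein, was 780 to 5092 CPM in fat and at most 106 CPM elsewhere. After VIM, the shares of SPARC, PLIN4, LPL, RAB18L, COL1A2 and COL6A2 were 0.266% down to 0.238%, and such shares grow with gene length. Genes without a symbol were not ranked. SPARC and COL6A2 were called above both tissues, with 5 of 6 hens in that order. In hen F1724, ovary (2371 and 2228 CPM) exceeded fat (1864 and 2008 CPM). SPARC lost this call when any hen other than F1724 was left out (FDR up to 0.29) and COL6A2 without hen F1721 or F6709 (up to 0.178), and both lost it with library size alone.

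The 10 named genes lowest in fat against both tissues had adipose medians of 0.11 to 1.58 CPM. SGK2, a kinase of the SGK family, was 0.0852 to 0.607 CPM in fat, 63.9 to 137 CPM in liver and 176 to 488 CPM in ovary. FADS6, of the fatty acid desaturase family, was 0.0969 to 1.31 CPM in fat, 301 to 378 CPM in liver and 9.84 to 31.3 CPM in ovary. GATM, which starts creatine synthesis, was 0.111 to 0.928 CPM in fat, 43.7 to 560 CPM in liver and 4.35 to 36.7 CPM in ovary. SALL1, a zinc finger transcription factor, was 0.334 to 3.06 CPM in fat, 75.2 to 217 CPM in liver and 70.2 to 114 CPM in ovary. NOXO1, an organizer of NADPH oxidase, and SYPL1, a vesicle membrane protein, reached at most 0.437 and 0.469 CPM in fat. SSX2IP, a centrosome and junction protein, reached 2.51 CPM. C1orf168, C6orf132 and EPCAM had medians of 0.302, 0.11 and 0.987 CPM in fat, with 1 library far above the rest. EPCAM, an epithelial adhesion protein, was 63.9 CPM in fat of hen F6709 and 0 to 1.64 CPM in the other 5 fat libraries, against 93.1 to 136 CPM in liver and 74.6 to 211 CPM in ovary.

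Markers of the neighbouring tissues were checked in the adipose libraries. All 21 tested hepatocyte markers were lower in fat than the mean, or 20 with library size alone. Summed they gave 266 to 2031 CPM in fat, 147 to 785 CPM in ovary and 768400 to 1181000 CPM in liver, where TMM scaling can lift a sum above the scale of unscaled CPM. ALB, serum albumin, was 0.969 CPM in fat of hen F1723 and 64.3 to 314 CPM in the others. Of 18 follicle and oocyte markers, 11 were lower than the mean and 1 was higher. They summed to 34.5 to 144 CPM in fat and 1246 to 2718 CPM in ovary, and DAZL and ZP2 of the oocyte reached at most 0.219 and 0.164 CPM in fat. The erythroid markers summed to 209 CPM in fat of hen F1721 and 773 to 1823 CPM in the other 5. Skeletal muscle markers summed to 14.2 to 57.6 CPM in fat. Of 7 smooth muscle and pericyte markers 3 were higher and 2 lower, near the shares over all genes. LMOD1 and RGS5 were above both tissues, with RGS5 of pericytes at 523 to 1317 CPM in fat. MYLK was below both, a call lost with library size alone and in 4 fits without 1 hen. The 7 summed to 886 to 2019 CPM in fat, 302 to 426 CPM in liver and 605 to 8162 CPM in ovary. Of 12 macrophage and myeloid markers, 5 were higher and 2 lower than the mean, where 37.7% of all genes were higher and 36.1% lower. Of 8 lymphocyte markers 5 were higher and 1 was lower than the mean, but 0 were above both tissues and IL7R was below both. They summed to 159 to 312 CPM in fat, 142 to 309 CPM in liver and 80.4 to 655 CPM in ovary. Without hens F1721 and F6709 together, 2 of the 12 myeloid markers were higher and 3 lower. Of 4 thermogenic and mitochondrial control genes, 1 was higher and 2 were lower.

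Mesothelial markers divided the adipose libraries. Summed over 7 genes, they were 311.5 CPM in hen F1721 and 383 CPM in hen F6709, and 18.5 to 28.6 CPM in the other 4. The same genes summed to 307 to 562 CPM in liver and 294 to 458 CPM in ovary, so they were not particular to fat. KRT19, a keratin of simple epithelia, was 185 CPM in hen F1721 and 214 CPM in hen F6709, and 1.36 to 6.9 CPM in the rest. CDH1, the cadherin of epithelia, was 52.3 CPM in hen F6709 and 0.387 to 1.09 CPM elsewhere in fat. EPCAM, which is outside the list, was likewise 63.9 CPM in hen F6709 and 0 CPM in hen F1721. BNC1 was 18.6 CPM in hen F1721, 6.05 CPM in hen F6709 and 0.182 to 0.607 CPM in the other 4. The 2 hens thus differed in some of these genes, and which cells gave these reads was not tested. Of the 7, 1 was called higher than the mean, 3 were lower and 1 was below both, and without both hens 5 were lower and 4 were below both. Over all genes in the main fit, 37.7% were higher, 36.1% lower and 10.1% below both. The 20 named genes above both tissues were all still called above both without these hens, and so were the 10 below both. Both sets were chosen for the largest differences over these same hens, so this outcome was likely from the start. Over all genes, 1780 were above both and 954 below both without these hens.

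Lipid genes also varied among the adipose libraries. Summed adipocyte and droplet genes were highest in the restricted hens F6710 (37770 CPM) and F1724 (31830 CPM), and lowest in the remaining restricted hen, F6709 (15600 CPM), while the ad libitum hens had 17070 to 21020 CPM. DGAT2, which makes triglyceride, was 977 CPM in hen F6710 and 784 CPM in hen F1724, 264 CPM in hen F1721 and 36.9 to 46.3 CPM in the other 3. SCD, stearoyl-CoA desaturase, had another order, at 279 CPM in hen F6709 and 249 CPM in hen F1724 against 13.4 to 44.4 CPM in the rest. Fatty acid synthesis genes summed to 4712 CPM in hen F6710, 4069 CPM in hen F1724 and 1406 to 2015 CPM in the other 4. The endothelial sum was highest in other hens, at 6882 CPM in hen F1725 and 6263 CPM in hen F1723 against 3049 to 4358 CPM in the other 4. Within the 20 top named genes the widest adipose ranges were those of OPTC, SPRY3, SEMA6C, TCF15 and SEMA3G. TCF15, a basic helix-loop-helix factor, was 160 CPM in hen F1723 and 138 CPM in hen F1725 and 26 to 52.7 CPM in the other 4, and SPRY3 was likewise highest in these hens, at 228 and 210 CPM. The genes above both by at least 4-fold had a median log2 range of 1.5 over the 6 fat libraries. Tested genes with an adipose mean of at least 10 CPM had 0.79, a minimum not set for the 4-fold genes.

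**Figure D5:**
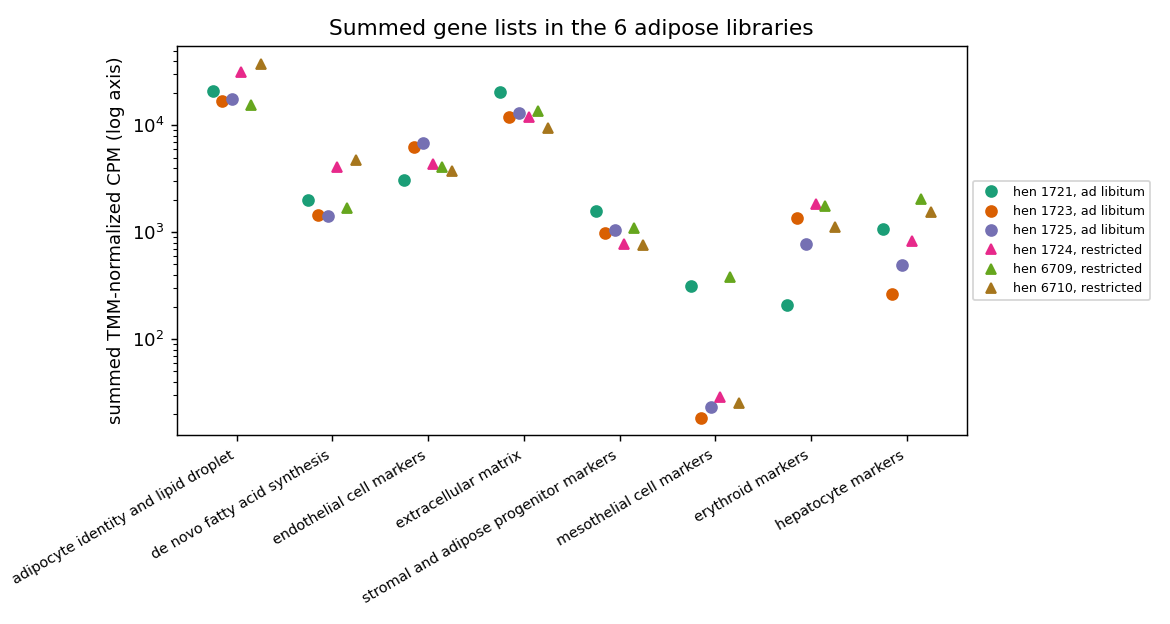
Summed TMM-normalized CPM (log axis) of 8 gene lists in the 6 adipose libraries, 1 point per hen, with circles for ad libitum and triangles for restricted feeding. Mesothelial sums of hens F1721 (311.5 CPM) and F6709 (383 CPM) lie far above the other 4 hens, and adipocyte sums are highest in hens F6710 and F1724.

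Whether the adipose contrast itself differed between feeding groups was tested as an interaction of tissue and feeding. No gene passed (0 of 12981, 0%). The lowest FDR reached 0.433. Before adjustment, 644 of the 12981 genes stood below 0.05, about as many as chance alone gives at that threshold. With 1 hen left out, this number ran from 378 of 13010 (without hen F1723) to 1085 of 13039 (without hen F1721). DESeq2 called 64 genes and the likelihood ratio test 53. With a median SE of 0.36 on the log2 scale and 3 hens per group, moderate differences were not detectable. The 5 named genes with the smallest p were MBL2, SHANK2, SALL1, MYOC and ENPEP, and each was called by DESeq2 and by the likelihood ratio test. MYOC, myocilin, was 146, 104 and 120 CPM in fat of the ad libitum hens F1721, F1723 and F1725. In fat of the restricted hens F1724, F6709 and F6710 it was 45.1, 44.1 and 69.2 CPM. MYOC was chosen by its small p in these same data, so a gap between the groups was likely from the start. Its contrast was higher with ad libitum feeding by 1.42 ± 0.28 on the log2 scale (edgeR FDR 0.618). The other 4 were at most 3.37 CPM in every fat library, so their values rest on few reads in fat. MBL2, a lectin of innate immunity, was 758 to 1116 CPM in liver of ad libitum hens and 359 to 597 CPM in that of restricted hens, and 0.145 to 2.19 CPM in fat. For PLIN1 the feeding difference was -0.07 ± 0.60, and for FABP4 it was -0.68 ± 1.08.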

How the data were processed

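Adipose, liver and ovary RNA of 6 hens was sequenced (18 libraries). The table the authors deposited holds raw counts per Ensembl gene, not normalized, from reads mapped to Gallus_gallus-5.0; the submitters' processing notes name CASAVA 1.8, TopHat2 2.1.1 and Bowtie2 2.0.6. Strand use and the handling of reads shared by paralogs are not given in the sources used here, so near-identical genes (globins, vitellogenins, FABP genes) may share reads.

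Genes above 1 CPM in all 6 libraries of at least 1 tissue were fitted with edgeR 4.0.16 in R 4.3.3 (TMM, glmQLFit and glmQLFTest, hen block, tissue terms), with Benjamini-Hochberg FDR under 0.1 over all tested genes. Calls above or below both tissues used the larger p of both contrasts. The feeding difference was a tissue by feeding interaction. SE is the absolute log2 difference over the square root of F, so it restates the test. The hen pairs the libraries because the 3 tissues came from the same animal; deviations from tissue means of the same hen correlated at -0.035 to 0.27. P-values rest on how the tissue differences vary between these hens, with a dispersion pooled over the 3 tissues. They do not measure the spread within fat alone. Floors cover counting error only.

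The named genes were the 20 above both (at least 10 CPM, 6 of 6 hens) and 10 below both with the largest smaller difference, the 10 with the largest count shares, the 5 with the smallest feeding p, and list members. Members and lists were chosen with earlier results of these data known. Symbols came from the identifier and symbol pairs of the study's supplementary tables, updated for 3566 genes through gene numbers in the NCBI RefSeq table of assembly bGalGal1.mat.broiler.GRCg7b; 5824 of 17108 genes had one. List members with no such symbol were not analysed here. Positions and sequences were not used here. Alternatives were no hen block, DESeq2 1.42.0, the likelihood ratio test, RLE factors, library size alone, no filter, an adipose filter, FDR under 0.05, a 2-fold minimum and leaving out hens. Tests were checked on simulated data. Tables and figures used Python 3.11.15, pandas 2.3.3, numpy 2.4.6 and matplotlib 3.10.9.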

Additional observations from a re-analysis of the deposited data

Results flagged for a closer look

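Of 61 values examined over the 6 adipose libraries (genes of the naming rules and list sums), 5 had 1 library far from the other 5 by Dixon's test at the 95% level, which chance alone gives in about 1 of 20 groups. Fat of hen F6709 was far above the others in 3 genes that were low in fat: EPCAM (63.9 CPM, others 0 to 1.64), C6orf132 (7.88 CPM, others 0.0454 to 0.276) and C1orf168 (3.92 CPM, others 0 to 0.483). Fat of hen F1721 was highest in SPARC (3330 CPM, others 1800 to 2240) and in the summed extracellular matrix genes (20530 CPM, others 9508 to 13530). The cause was not tested.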

How the results depend on the processing

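No named gene called against the mean reversed direction under the alternatives run. Over the named genes, called or not, 3768 comparisons with the main value kept their side of the threshold, 73 lost a call and 62 gained 1. These totals leave out FDR under 0.05, the 2-fold minimum and the calls above or below both, and include the feeding difference for 5 genes only. For SPARC and FGFR2 the call above or below both was lost in 5 of the 6 fits without 1 hen. With a 2-fold minimum, 3656 genes differed from the mean of both tissues, 727 were above both, 283 below both, 5145 differed from liver and 4016 from ovary. With library size alone 534 genes were below both. The feeding difference called 64 genes with DESeq2, 53 with the likelihood ratio test and 19 without hens F1721 and F6709 together. Leaving out 1 hen at a time gave 9120 to 9448 genes that differed from the mean, 1873 to 2093 above both, 1009 to 1205 below both, 9486 to 9799 against liver, 9004 to 9512 against ovary and 0 to 7 for the feeding difference; 7 came without hen F6709, 2 without hen F1721 and 1 without hen F6710. Without the replicate block (the pairing by hen), 9522 genes differed from the mean, 2193 were above both and 1336 below both, 9919 differed from liver, 9483 from ovary and 0 by feeding. The adipose filter left the 10 named genes below both untested. In all other alternatives run, the 20 named genes above both and the 10 below both passed, which their choice by the largest differences made likely. Depth limits genes near 0.2 CPM, and folds against liver genes with few reads rest on a floor.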
